A study of Mus musculus with 6 samples.

Results

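Long-term haematopoietic stem cells are the rare marrow cells that can rebuild all blood lineages after transplantation and persist for the life of the animal. A small set of genes is known for being high in these cells and falling as they turn into multipotent progenitors. The transcripts described here are 10 such identity genes, namely the transcription factor gene Hlf, the chromatin reader gene Mllt3, the RNA-binding protein gene Msi2, the surface protein genes Procr, Slamf1, Ly6a and Clec1a, the signalling gene Fgd5, the adhesion-related gene Ctnnal1 and the sulfotransferase gene Sult1a1. They were taken by symbol from the 18465 genes of the table, and all 10 were found and passed the filter on low values used for testing.

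The cells were SLAM-LSK cells from the bone marrow of C57BL/6 mice, sorted as negative for lineage markers and CD48 and positive for Sca-1, c-Kit and CD150. The sort enriches for stem cells but does not purify them. The wild-type (WT) group had 3 libraries, and the group MecomWT:R751W, heterozygous for the R751W allele of Mecom, also had 3. No treatment is named, and the sources used here do not give the age of the mice. The labels call the libraries biological replicates without saying whether each came from its own mouse, so the p-values reflect only how these libraries vary. Mecom encodes a zinc finger transcription factor needed to maintain stem cells, and the comparison asks how 1 altered copy changes the expression of stem cell genes.

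Values are TPM, which correct read numbers for the length of each gene and for sequencing depth. The table implied 10427533 to 12378149 reads per library, and protein-coding genes held 25.9% to 30.1% of all TPM. That share was lowest in replicate 2 of both genotypes, 25.9% in WT and 26.0% in MecomWT:R751W, so genes are also given on a protein-coding scale, on which the protein-coding rows of each library are rescaled to the full TPM total. For Mecom the mean was 38.2 ± 4.17 TPM in WT, and in MecomWT:R751W it was 45.0 ± 5.53 TPM (SD, n = 3 per group). Both alleles count towards that value, so it does not check the genotype.

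The promoters of 3 of the genes are shown because these genes mark the ends of what the data show. Hlf was the most abundant of the 10, Slamf1 had the largest positive genotype difference, and Mllt3 was the gene whose libraries separated in the other direction on a protein-coding scale. Each stretch is the 249 bases before the transcription start that RefSeq gives in GRCm38.p6, written in the direction of transcription. Capitals mark matches, on either strand, to GATAA, the core of sites for GATA factors, and to GGAAG, a core of sites for ETS factors.
Slamf1, chr1:171766882-171767130, plus strand: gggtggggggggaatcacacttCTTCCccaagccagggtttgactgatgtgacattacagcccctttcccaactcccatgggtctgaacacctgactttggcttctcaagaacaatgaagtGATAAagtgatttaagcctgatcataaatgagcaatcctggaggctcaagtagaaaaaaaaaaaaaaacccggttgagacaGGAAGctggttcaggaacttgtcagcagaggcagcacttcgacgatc
Hlf, chr11:90390919-90391167, minus strand: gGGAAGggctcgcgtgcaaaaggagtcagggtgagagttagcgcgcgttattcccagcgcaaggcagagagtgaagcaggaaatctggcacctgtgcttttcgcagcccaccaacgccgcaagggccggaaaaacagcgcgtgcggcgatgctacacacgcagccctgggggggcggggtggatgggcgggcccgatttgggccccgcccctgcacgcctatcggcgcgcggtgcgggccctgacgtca
Mllt3, chr4:88033409-88033657, minus strand: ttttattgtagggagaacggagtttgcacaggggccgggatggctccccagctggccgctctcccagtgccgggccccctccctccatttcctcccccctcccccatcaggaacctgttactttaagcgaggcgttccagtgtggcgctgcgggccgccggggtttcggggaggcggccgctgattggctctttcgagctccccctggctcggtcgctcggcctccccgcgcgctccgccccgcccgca
The Slamf1 window held 1 match to GATAA, counting its reverse complement, and 2 to GGAAG, counted likewise. The Hlf window held 1 match to GGAAG and the Mllt3 window none to either. The table of promoters held 11 windows for 8 of the 10 genes, and Ly6a and Clec1a had no entry. GATAA was matched in windows of 1 of these 8 genes and GGAAG in those of 5, while 22.5% and 63.9% of all 32851 windows of the same length held them. Another string, GATGAG, the end of a sequence bound by the second zinc finger domain of EVI1, was in windows of 0 of the 8 genes and in 10.05% of all windows. The windows differed in base composition, with 47.4% G and C for Slamf1, 67.1% for Hlf and 69.1% for Mllt3. These matches describe the letters only.

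The 10 genes spanned an 18.6-fold range of mean TPM. Hlf, a PAR bZIP factor tied to stem cell quiescence and self-renewal, led the order. In replicate order its values were 101, 85.3 and 82.7 TPM for WT and 95.2, 69.1 and 94.8 TPM for MecomWT:R751W, the order used for all values below. The mean over the 6 libraries was 88.1 TPM, higher than that of 96.1% of the protein-coding genes tested. The genotypes overlapped, and MecomWT:R751W replicate 2 was the lowest of the 6 libraries. Msi2, an RNA-binding protein that controls translation and supports self-renewal, came next, at 43.6, 37.0 and 42.6 TPM in WT and 41.1, 38.7 and 42.8 TPM in MecomWT:R751W, again with overlapping groups. Mllt3, which encodes AF9, a reader of acetylated and crotonylated histones that keeps stem cell genes active, followed at a mean of 29.3 TPM.

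The middle of the order was held by 3 genes that could not be ranked against each other. Fgd5, an exchange factor for the GTPase CDC42 used as a stem cell reporter gene, had a mean of 20.6 TPM with libraries from 17.2 to 25.7. Ctnnal1, which encodes alpha-catulin and is likewise used as a stem cell reporter, had a mean of 19.1 TPM with libraries from 15.1 to 23.0. Procr, which encodes the endothelial protein C receptor EPCR, had a mean of 18.6 TPM with libraries from 15.8 to 20.2. Fgd5 exceeded Ctnnal1 in 3 of 6 libraries and Ctnnal1 exceeded Procr in 4 of 6.

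Both genes of the list whose proteins the sort selected for lay in the lower part of the order. Slamf1, the gene of CD150, had a mean of 12.6 TPM, and Ly6a, the gene of the GPI-anchored protein Sca-1, a mean of 10.9 TPM. Ly6a thus stood above only 50.1% of the protein-coding genes tested, in cells gated on its protein. That value rests on 69 to 101 implied reads per library. The span of Ly6a overlaps the RefSeq gene Gm28068, and how reads in the shared stretch were assigned is not stated, so its level may be understated. Kit, also selected for, had a mean of 169 TPM. Slamf1 exceeded Ly6a in 4 of 6 libraries, so these neighbours were not separated either. Sult1a1, a phenol sulfotransferase, followed at 8.54 TPM and Clec1a, a C-type lectin-like receptor, was last at 4.73 TPM. Of the 9 neighbour pairs in the order, 7 overlapped in their ranges over the 6 libraries and 4 kept their order within every library.

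**Figure D1:**
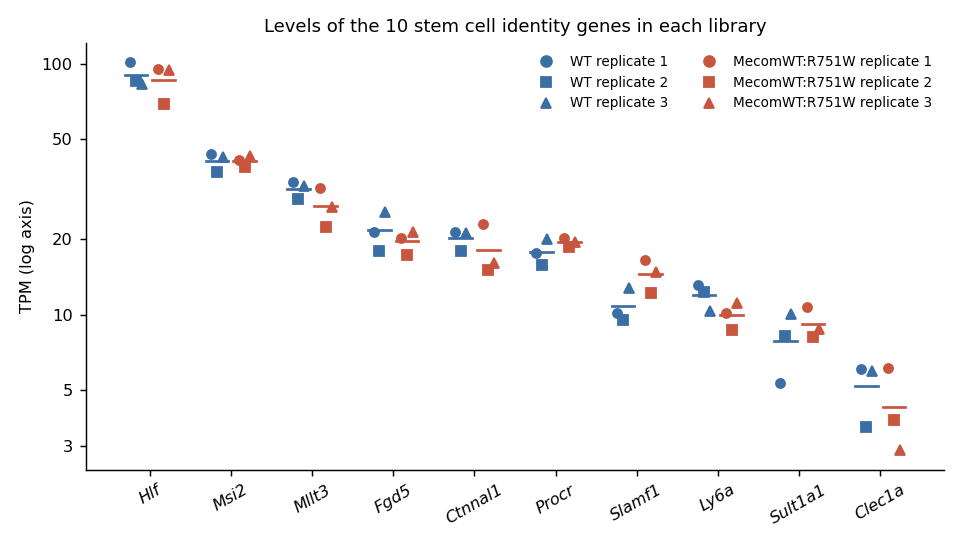
TPM of the 10 genes on a log axis in each of the 6 libraries, ordered by mean, with WT in blue and MecomWT:R751W in red, the marker giving the replicate and the bar the group mean (n = 3). Hlf and Msi2 stand clear of the genes below them, and no gene has groups that do not overlap.

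The order depends on the gene length behind each TPM value. The length implied by the table was 20454 bases for Msi2, against 10405 bases of merged exons in GENCODE M21, and 4269 against 1507 bases for Sult1a1. The other members had implied lengths of 0.508 to 0.977 of the merged exon length. With the GENCODE lengths in place, Msi2 and Hlf had means of 56.7 and 53.8 RPKM computed from implied reads, and Hlf was above Msi2 in 3 of 6 libraries. Sult1a1 moved from the ninth place to the third with those lengths, and Slamf1 from the seventh to the ninth. Hlf (chromosome 11, 90336535 to 90390917), Slamf1 (chromosome 1, 171767131 to 171801184), Procr (chromosome 2, 155751125 to 155755478), Fgd5 (chromosome 6, 91978827 to 92076005) and Ctnnal1 (chromosome 4, 56810935 to 56865375) overlapped no other RefSeq gene in GRCm38. Mllt3 (chromosome 4, 87769925 to 88033407), Msi2 (chromosome 11, 88339382 to 88718306), Ly6a (chromosome 15, 74994877 to 74998031), Clec1a (chromosome 6, 129426684 to 129452000) and Sult1a1 (chromosome 7, 126672865 to 126690443) each shared their span with 1 to 3 others. For Sult1a1 these include Slx1b, for Clec1a Clec12b and for Ly6a Gm28068. The sources used here do not say how reads in shared stretches were assigned.

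The spread between libraries differed widely among the 10 genes. Clec1a varied most, from 2.88 to 6.11 TPM over the 6 libraries, and its standard deviation within groups on log2(TPM + 1), 0.40, exceeded that of 96.1% of protein-coding genes of similar level. Sult1a1 came next at 0.32, above 93.2% of such genes, with WT replicate 1 low at 5.34 TPM beside 8.18 and 10.1 TPM in WT replicates 2 and 3. Hlf, despite its high level, had a standard deviation of 0.22, above 91.4% of genes of similar level. Msi2 was the steadiest at 0.10, above only 11.4%, and Procr followed at 0.12, above 19.4%. On the protein-coding scale Hlf was above 82.1% of genes of similar level, Clec1a above 95.8% and Sult1a1 above 95.4%. Msi2 was above 4.60% there and Procr above 33.6%.

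Part of this spread was shared by library. On the TPM scale 9 of 10 genes lay below their own mean in WT replicate 2 and 9 of 10 in MecomWT:R751W replicate 2, the libraries with the smallest share of protein-coding TPM. The mean deviation of the 10 genes was -0.12 and -0.19 (log2) in these libraries, and the median protein-coding gene lay at -0.12 and -0.13. On the protein-coding scale the same means were -0.0017 and -0.08, with 5 and 6 of 10 genes below their own mean. The highest libraries on that scale were WT replicate 3 and MecomWT:R751W replicate 1, at 0.10 each, so the genotypes were not separated by the mean of the 10 genes on either scale.

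**Figure D2:**
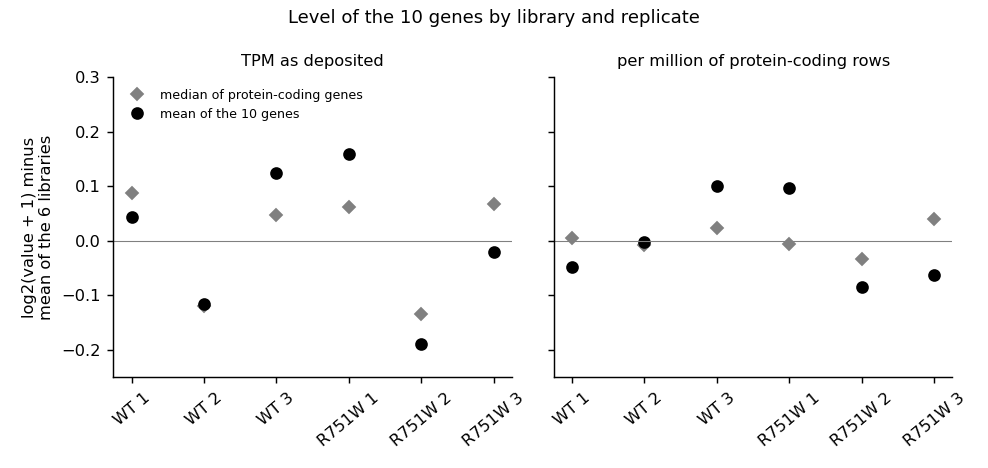
Mean deviation of the 10 genes (black circles) and median deviation of protein-coding genes (grey diamonds) from the mean of the 6 libraries, in log2 units, for WT 1 to 3 and MecomWT:R751W 1 to 3, on TPM as deposited (left) and on the protein-coding scale (right). Replicate 2 of both genotypes lies lowest on the left, at -0.12 and -0.19, and the genotypes overlap on both sides.

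Implied reads give the spread expected from counting alone, and the coefficient seen in 3 libraries can fall below it. Msi2 rested on 6068 to 7479 reads per library, Hlf on 3197 to 4626 and Mllt3 on 1224 to 1921, where counting alone gives coefficients of variation of 1.22%, 1.57% and 2.49%. Ly6a rested on 69 to 101 reads and Clec1a on 79 to 167, with counting coefficients of 10.7% and 9.04%. These values cover counting error only, since the reads carry no stated molecular identifiers. On the protein-coding scale, the observed coefficient for Ly6a was 14.03% in WT and 8.34% in MecomWT:R751W, close to its counting error. Those of Clec1a were 20.9% and 35.3%, and those of Hlf 8.63% and 11.2%, well above it. Mllt3 was at 112.2, 111.2 and 112.3 in WT on that scale, a coefficient of 0.550%, below its counting error, and the coefficient in MecomWT:R751W was 11.4%. Ctnnal1 was also below its counting error of 4.11% in WT, at 2.72%, and above it in MecomWT:R751W, at 18.5%. Procr was above its counting error of 6.08% in WT, at 8.92%, and below it in MecomWT:R751W, at 3.06%.

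**Figure D3:**
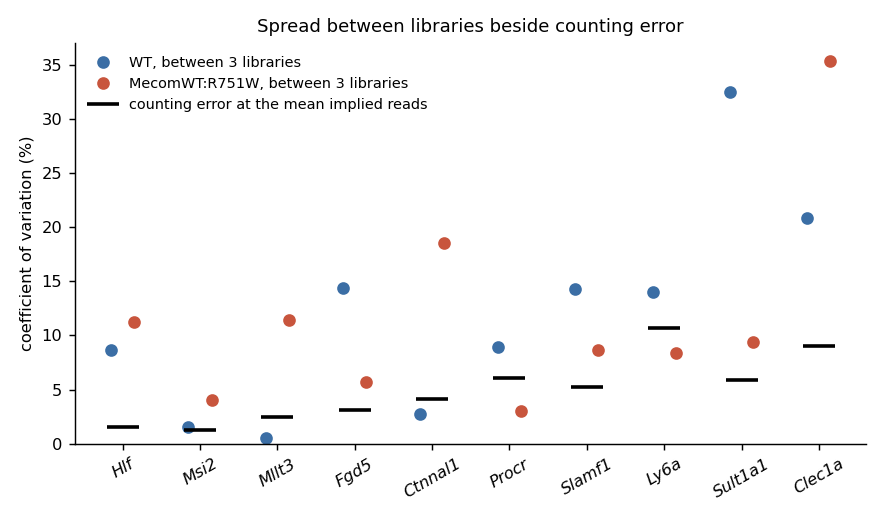
Coefficient of variation, in percent, of each gene on the protein-coding scale between the 3 WT libraries (blue) and the 3 MecomWT:R751W libraries (red), with the counting error at the mean implied reads as black bars. Sult1a1 lies far above its counting error in WT (32.5% against 5.86%) and less so in MecomWT:R751W (9.41%), Clec1a lies above it in both groups, and Ly6a lies near it.

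None of the 10 genes differed between the genotypes by limma. Over all 16655 genes tested, 0 of the 10 passed an adjusted p of 0.05, where 0.0% of all genes did. At an unadjusted p under 0.05 there was 1 of the 10, Slamf1, against 5.97% of all genes. It was on the higher side, where 2.74% of all genes fell, against 3.23% on the lower side. The log2 fold change, MecomWT:R751W minus WT on the log2(TPM + 1) scale, was below 0 for 7 genes and above 0 for 3, and 51.0% of all genes lay below 0 and 49.0% above. The median of the 10 was -0.10 and that of all genes -0.0037. The 95% confidence interval of every one of the 10 lay within a 2-fold change in either direction on this scale. In these bulk samples fewer cells of a type and less RNA per cell cannot be told apart.

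**Figure D4:**
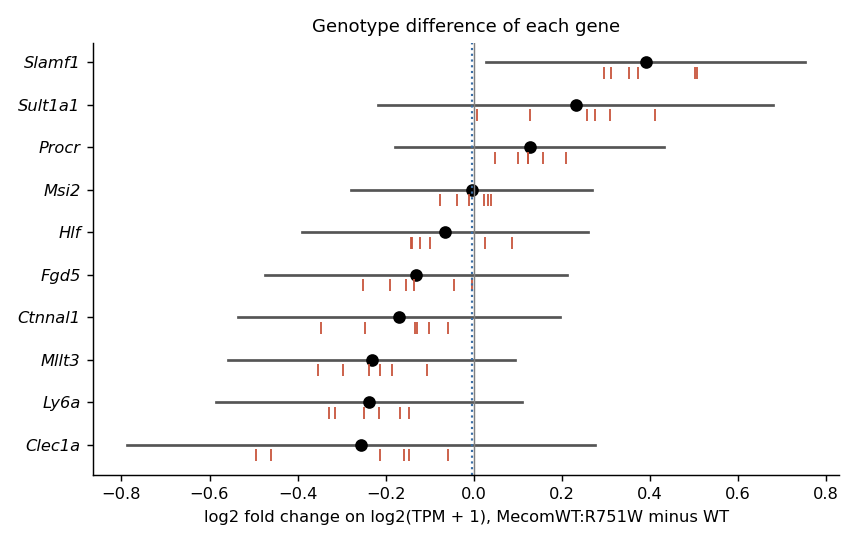
Log2 fold change of each gene on log2(TPM + 1), MecomWT:R751W minus WT, as a black dot with its 95% confidence interval from limma, and the values after leaving out each library in turn as red ticks. The dotted line marks the median of all genes tested, and the interval of Slamf1 alone does not reach 0.

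Among the surface receptors, Slamf1 had the largest difference. CD150 is a self-ligand receptor of the SLAM family and part of the gate. Slamf1 was at 10.1, 9.50 and 12.8 TPM in WT and at 16.5, 12.2 and 14.7 TPM in MecomWT:R751W. The MecomWT:R751W libraries lay higher except that replicate 2 fell below WT replicate 3, so the groups overlapped. The log2 fold change was 0.39 (SE 0.17, 95% interval 0.03 to 0.75, adjusted p = 0.797 by limma). It stayed between 0.30 and 0.51 when single libraries were left out.

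Ly6a, the other gate receptor among the 10, had the opposite sign. It was at 13.2, 12.3 and 10.3 TPM in WT and at 10.1, 8.64 and 11.2 TPM in MecomWT:R751W. The highest MecomWT:R751W library exceeded the lowest WT library, so the groups overlapped. The log2 fold change was -0.24 (SE 0.16, 95% interval -0.58 to 0.11, adjusted p = 0.994 by limma). Kit, which completes the positive gate, stood at -0.21 (SE 0.13) and also missed the threshold.

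Procr, whose product EPCR holds activated protein C at the cell surface and is used to sort stem cells, was at 17.6, 15.8 and 20.004 TPM in WT and at 20.2, 18.6 and 19.5 TPM in MecomWT:R751W. The log2 fold change was 0.13 (95% interval -0.18 to 0.43), and WT replicate 3 lay within the MecomWT:R751W values. Clec1a was at 6.08, 3.58 and 5.95 TPM in WT and at 6.11, 3.80 and 2.88 TPM in MecomWT:R751W. Each group had both high and low libraries, and its log2 fold change of -0.26 had the widest interval of the 10, from -0.79 to 0.28. Without MecomWT:R751W replicate 3, Clec1a stood at -0.06, and without MecomWT:R751W replicate 1 at -0.50.

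Among the nuclear and RNA-binding regulators, Mllt3 had the most negative value. It was at 33.8, 28.8 and 32.4 TPM in WT and at 31.8, 22.3 and 26.9 TPM in MecomWT:R751W. MecomWT:R751W replicate 1 lay within the WT range and the other two lay below it. The log2 fold change was -0.23 (SE 0.15, 95% interval -0.56 to 0.09, adjusted p = 0.987 by limma). It stood at -0.11 without MecomWT:R751W replicate 2 and at -0.35 without MecomWT:R751W replicate 1.

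Hlf stood at -0.07 (95% interval -0.39 to 0.26) and Msi2 at -0.0047 (95% interval -0.28 to 0.27). Both signs turned when single libraries were left out, to at most 0.09 for Hlf, without MecomWT:R751W replicate 2, and 0.04 for Msi2, without WT replicate 1. Msi2 also turned when libraries were shifted to the same median, to 0.0080.

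Among the signalling, adhesion and metabolic genes, Fgd5 was at 21.3, 17.9 and 25.7 TPM in WT and at 20.2, 17.2 and 21.3 TPM in MecomWT:R751W. Its log2 fold change was -0.13 (95% interval -0.47 to 0.21), and it was -0.0037 without WT replicate 3, the highest library. Ctnnal1 was at 21.3, 17.97 and 21.2 TPM in WT and at 23.0, 15.1 and 16.1 TPM in MecomWT:R751W, where replicate 1 stood apart from the other two. Its log2 fold change was -0.17 (95% interval -0.53 to 0.20), and -0.35 without that library. Sult1a1 was at 5.34, 8.18 and 10.1 TPM in WT and at 10.7, 8.11 and 8.78 TPM in MecomWT:R751W. Its log2 fold change of 0.23 (95% interval -0.22 to 0.68) came to 0.0077 without WT replicate 1, the low library.

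On the TPM scale 0 of the 10 genes had groups that did not overlap, where 4.5% of all genes tested had MecomWT:R751W above WT and 4.7% below. On the protein-coding scale there were 2 of the 10, where 16.2% of 12394 protein-coding genes had such groups, 7.53% with MecomWT:R751W above and 8.63% below. Slamf1 was at 33.7, 36.7 and 44.3 in WT and at 55.6, 46.8 and 51.0 in MecomWT:R751W, so every MecomWT:R751W library lay above every WT library. Mllt3 was at 112.2, 111.2 and 112.3 in WT and at 107.1, 85.6 and 93.3 in MecomWT:R751W, so every MecomWT:R751W library lay below every WT library. The nearest libraries of the groups were only 2.51 apart for Slamf1 and 4.09 apart for Mllt3. Counting alone gives coefficients of 5.26% for Slamf1 and 2.49% for Mllt3, so both gaps were near the size of counting error. The WT coefficient of Mllt3, 0.550%, was below its counting error. With limma on this scale the log2 fold change of Slamf1 was 0.42 (SE 0.12, adjusted p = 0.240) and that of Mllt3 -0.24 (SE 0.09, adjusted p = 0.371), and neither passed. Over all alternatives the adjusted p of Slamf1 ran from 0.119 to 1.00 and that of Mllt3 from 0.204 to 1.00. Ly6a was at 43.8, 47.4 and 35.8 in WT and at 34.0, 33.2 and 38.6 in MecomWT:R751W, and its groups still overlapped. Kit, a gate gene outside the 10, was at 657, 627 and 639 in WT on this scale. In MecomWT:R751W it was at 566, 528 and 569, below WT in every library.

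**Figure D5:**
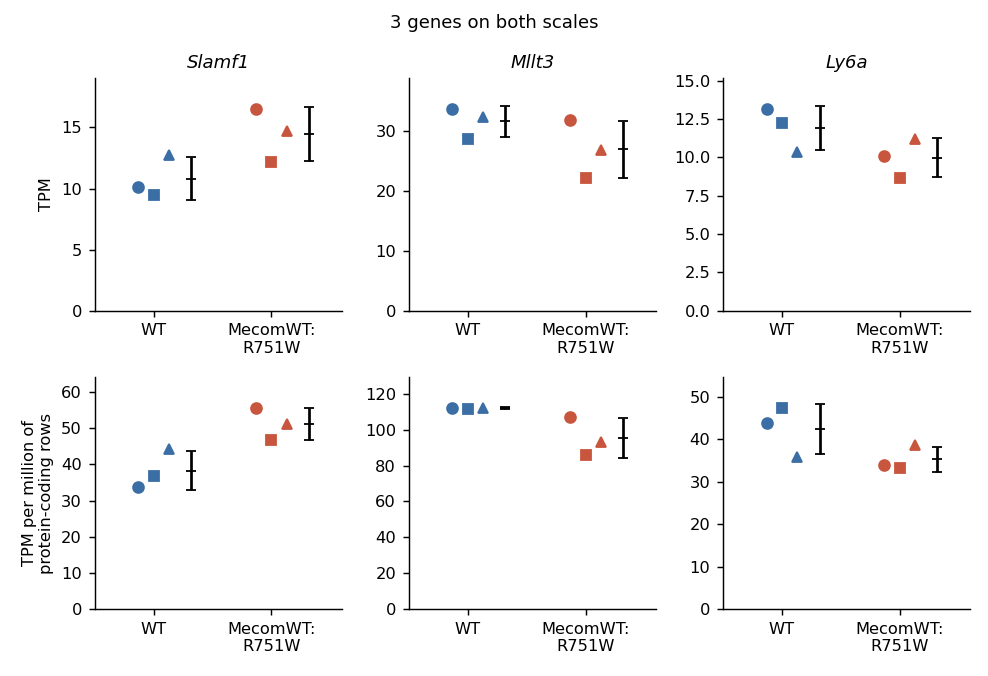
Slamf1, Mllt3 and Ly6a in the 3 WT (blue) and 3 MecomWT:R751W (red) libraries, as TPM (top) and on the protein-coding scale (bottom), with the marker giving the replicate and the black bar the mean ± SD (n = 3). In the bottom row the genotypes are apart for Slamf1 and Mllt3, by 2.51 and 4.09 between the nearest libraries, and overlap for Ly6a.

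A ratio of genes within a library is free of scaling between libraries. The ratio of Slamf1 to Mllt3, a pair chosen after its values were seen and so given with no test, was 0.300, 0.330 and 0.394 in WT and 0.520, 0.547 and 0.547 in MecomWT:R751W. The means were 0.342 ± 0.0481 and 0.538 ± 0.0156 (SD, n = 3). The ratio of Slamf1 to Ly6a, both gate receptors, was 0.770, 0.774 and 1.24 in WT and 1.64, 1.41 and 1.32 in MecomWT:R751W. In both ratios every MecomWT:R751W library lay above every WT library. Both set Slamf1, which lay above 0, over a gene that lay below 0, and this widens any gap. How many other pairs separate was not tested, and 16.2% of single protein-coding genes did so on the protein-coding scale.

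The relatives of Slamf1 lie beside it on chromosome 1. Ly9 (171588613 to 171607410), a SLAM family receptor of lymphocytes, had a WT mean of 6.69 ± 0.939 TPM and a MecomWT:R751W mean of 10.99 ± 1.62 TPM (SD, n = 3), with groups that did not overlap, where 9.19% of the genes tested had such groups. Cd48 (171681245 to 171705258), the receptor that the gate selects against, was at 2.18, 1.85 and 1.02 TPM in WT and at 3.24, 2.27 and 4.10 TPM in MecomWT:R751W, also without overlap. The log2 fold changes were 0.64 (SE 0.17, adjusted p = 0.412) for Ly9 and 0.65 (SE 0.23, adjusted p = 0.674) for Cd48 by limma, and neither passed. Cd84 (171839697 to 171890718) on the other side of Slamf1 stood at -0.14 (SE 0.15) and Cd244a (171558718 to 171585316) at -0.0080 (SE 0.21). Of the 4 relatives tested, 2 lay above 0 and 2 below.

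Genes that work with the other members were not called either. For EPCR, the protein C pathway had 4 tested genes, 3 above 0. F2r, the thrombin receptor PAR1 through which EPCR-bound activated protein C signals, was at 45.2, 32.9 and 43.4 TPM in WT and at 72.9, 57.2 and 65.2 TPM in MecomWT:R751W (log2 fold change 0.68, SE 0.15, adjusted p = 0.268 by limma). Pros1, the cofactor protein S, stood at 0.45 (SE 0.18) and F2rl2 at 0.01. For AF9, 7 of 10 partners in transcription elongation lay below 0, with a median of -0.12, and Aff3, Aff4 and Aff1 were the most abundant at 45.9, 34.6 and 25.7 TPM. Mllt1, the paralog of Mllt3, had a mean of 19.4 TPM and stood at 0.11. The bZIP relatives Tef and Dbp had means of 6.10 and 3.65 TPM, far below Hlf, and stood at -0.13 and -0.21. All 4 tested members of the FGD family other than Fgd5 lay below 0, with a median of -0.09 and means of at most 8.05 TPM. Ly6e, the member of the LY6 family analysed beside Ly6a, had a mean of 50.1 TPM and stood at 0.07. Ctnna1, the alpha-catenin that Ctnnal1 resembles, had a mean of 38.4 TPM and stood at -0.05. Clec2d stood at 0.30, the sulfotransferase Sult2b1 at 0.07 and Papss1, which makes the sulfate donor, at 0.07. Numb, a target of the Musashi proteins, stood at 0.04.

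A list of 32 other genes known from long-term stem cells had 29 tested, 19 below 0 and 10 above, with a median of -0.11. Of all genes tested, 51.0% lay below 0. None of the list passed the adjusted threshold by limma. By the same fit 6 of the 29 had an unadjusted p under 0.05, a larger share than the 5.97% of all genes. The list was chosen with earlier results of these data known, so this excess was not tested. Angpt1, the ligand of the receptor TIE2, Txnip, a redox regulator, and the adhesion receptor gene Adgrg1 were the most abundant at 256, 247 and 185 TPM. Socs2, Hoxb5 and Ltb were among those with the smallest unadjusted p-values. Socs2, an inhibitor of cytokine signalling, was at 2.30, 2.33 and 2.62 TPM in WT and at 4.84, 4.00 and 4.71 TPM in MecomWT:R751W (log2 fold change 0.69, SE 0.18, adjusted p = 0.366 by limma). Hoxb5, a homeobox gene used to mark long-term stem cells, was at 2.25, 1.93 and 2.70 TPM in WT and at 3.80, 3.24 and 5.21 TPM in MecomWT:R751W. Both were higher in every MecomWT:R751W library, where 4.5% of all genes tested were. Other genes of the list, Cdkn1c and Tek among them, were lower in every MecomWT:R751W library, where 4.7% of all genes tested were. Ltb, a cytokine gene, stood at -0.51 (SE 0.20), with groups that overlapped.

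The lists of other cell types that the gate could hold were measured beside the 10 genes. Of the endothelial markers, which matter because Procr, Fgd5 and Clec1a are also endothelial genes, Cdh5, Flt4 and Cldn5 were not analysed here, Kdr, Plvap and Stab2 had means of 0.910, 0.730 and 0.571 TPM, and the list summed to 87.9 to 106 TPM in WT and 89.3 to 116 TPM in MecomWT:R751W. Most of that sum came from Tie1, Vwf, Pecam1 and Emcn, which stem cells also express. Emcn was at 13.7, 13.6 and 13.7 TPM in WT and at 19.4, 19.3 and 25.1 TPM in MecomWT:R751W. Its log2 fold change was 0.59 (SE 0.15, adjusted p = 0.344 by limma), and 4.5% of all genes tested were likewise higher in every MecomWT:R751W library. Plvap, under the filter, was lower in every MecomWT:R751W library, and the groups of the other genes analysed overlapped. T and NK cell markers summed to 9.05 to 10.1 TPM in WT and 19.2 to 21.6 TPM in MecomWT:R751W, with all 4 tested members above 0. Erythroid markers summed to 15.8 to 22.7 and 27.3 to 38.1 TPM, with all 8 tested above 0. For both lists the genotypes did not overlap. The lymphoid-primed and multipotent list summed to 103 to 127 and 117 to 141 TPM, with 5 of 6 tested above 0. Most of that sum was Cd34, a surface marker gained as stem cells become progenitors, with a mean of 81.9 TPM and a log2 fold change of 0.07. Flt3, the cytokine receptor that marks multipotent and lymphoid-primed progenitors, was at 11.7, 9.30 and 13.04 TPM in WT. In MecomWT:R751W it was at 24.0, 20.4 and 24.1 TPM, above WT in every library (log2 fold change 0.96, SE 0.16, adjusted p = 0.142 by limma). Notch1 had a mean of 10.9 TPM and stood at -0.06. The megakaryocyte list summed to 224 to 252 and 201 to 249 TPM with 5 of 7 below 0, and the granulocyte and monocyte list to 99.3 to 120 and 88.8 to 116 TPM with 4 of 5 below 0. The B cell list held 1 tested gene, at 5.30 to 8.21 and 6.38 to 8.11 TPM, and stromal markers summed to 4.91 to 5.91 and 3.21 to 5.60 TPM. Of the genes the gate selects against, Cd4 and Itgam had means of 2.56 and 3.94 TPM beside Cd48. Ptprc, which white blood cells and their precursors express broadly, had 68.6 TPM, and the other 5 were not analysed here. The part of these cell types in the values of the 10 genes was not tested.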

How the data were processed

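RNA from sorted SLAM-LSK cells was measured in 3 WT and 3 MecomWT:R751W libraries. The authors deposited 1 table of TPM, normalized to the same total per library. The submitters' processing notes name mm10 and DESeq2 without saying for which step. For the aligner, the counting and its strand setting, nothing is stated in the sources used here.

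Whole reads were implied for 100.0% of the 18465 genes within 0.001 reads (98.5% of genes recovered on a simulated table), from ratios within each gene. They give depth and an added alternative. All symbols matched RefSeq for GRCm38.p6, 12552 of them protein-coding.

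The test was limma 3.58.1 (R 4.3.3) comparing genotypes on log2(TPM + 1), two-sided, with no other term in the model and the prior variance following the mean. Genes averaging 1 TPM or more were tested, with Benjamini-Hochberg adjustment over all genes tested and a threshold of 0.05. On data simulated with a dispersion of 0.02, 90% of 200 genes changed 2-fold were recovered, with 12 false calls. That rate describes the simulated noise only and is not the power in these libraries. Among the real genes, Flt3 had a log2 fold change of 0.96 and was not called (adjusted p = 0.142 by limma). Figures were made with Python 3.11.15 and matplotlib 3.10.9. The 10 genes and all lists were chosen with earlier results of these data known. Beside all 10, the text names per other list up to 3 genes of highest mean TPM, and for other stem cell genes the 4 of smallest unadjusted p, of which 1 is not reported here. Cd244a, Mllt1, Kdr, Plvap, Stab2, Kit and other genes outside this rule were named after their values were seen. Alternatives changed the pseudocount, filter, scaling, rows tested, variance trend, replicate block, gene lengths and libraries used.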

Additional observations from a re-analysis of the deposited data

How the results depend on the processing

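None of the 10 genes passed the adjusted threshold under any of the 17 alternatives, and 161 of their 169 refitted differences kept their sign. Changing the filter, the variance trend, the replicate block or the rows without rescaling leaves each log2 fold change as it was. The signs in those alternatives were therefore fixed beforehand, and only their p-values could move. The 8 that turned were all of Hlf and Msi2, the genes nearest to 0. Leaving out single libraries gave -0.14 to 0.086 for Hlf and -0.076 to 0.040 for Msi2. Msi2 stood at 0.0080 with libraries shifted to the same median, at 0.0039 with limma-voom on implied reads and at 0.0068 with limma-voom on those of protein-coding rows. The median of the 10 genes ran from -0.16 to -0.0062 when single libraries were left out. It moved by less than the 0.15 spread between replicates in every alternative. That spread is larger than the median itself, -0.10, so a change of sign could also have stayed within it. Clec1a had no value with a mean of at least 5 TPM required.

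The count of all genes called, 0 higher and 0 lower, changed with the rows tested, the scale and the model. It was 1 higher and 1 lower with a mean of at least 5 TPM, 40 and 92 over protein-coding rows, 8 and 9 over those rows rescaled, 24 and 26 with limma-voom on implied reads and 38 and 52 with limma-voom on those of protein-coding rows. Leaving out single libraries gave 0 to 6 higher and 0 to 9 lower, with 4 higher and 9 lower when MecomWT:R751W replicate 1 was dropped, 6 and 2 for WT replicate 3, 1 and 1 for WT replicate 2 and 0 for each of the others, and the cause was not tested. Both limma-voom fits and the GENCODE lengths were chosen after seeing the data. With GENCODE lengths the ratio of mean level of Hlf to Msi2 was 0.949 in place of 2.15, since the length of Msi2 is shorter there.

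Same-numbered libraries of both genotypes had correlated deviations of 0.140, 0.0893 and 0.0833 across genes, each the highest for its library, but the labels do not pair them. With the replicate block 0 genes were called higher and 0 lower, and Slamf1 had an adjusted p of 0.440 by limma. Ly6a and Clec1a, with 69 to 167 reads per library, are the genes whose depth limits the precision most.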

Other observations

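Cyp26b1, the enzyme that degrades retinoic acid, belongs to the list of other stem cell genes but fell under the filter on low values. It was at 1.08, 1.21 and 1.25 TPM in WT and at 0.200, 0.0201 and 0.162 TPM in MecomWT:R751W. These values rest on 101, 124 and 134 implied reads in WT and on 18, 2 and 17 in MecomWT:R751W, so every MecomWT:R751W library lay far below every WT library. It was singled out after its values were seen. With no filter, limma on log2(TPM + 1) gave a log2 fold change of -0.95 (SE 0.13, adjusted p = 0.106), a scale that compresses genes this low. With limma-voom on implied reads over all 18465 genes, also chosen after seeing the data, the log2 fold change was -3.59 (SE 0.54, adjusted p = 0.00553). The adjusted p of that fit was 0.00513 to 0.0337 when single libraries were left out, and the fold change was -2.73 without MecomWT:R751W replicate 2.

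Dntt, the terminal transferase of lymphoid progenitors, fell under the filter too. It had 3, 7 and 3 implied reads in WT and 35, 16 and 31 in MecomWT:R751W, and limma-voom gave a log2 fold change of 2.63 (SE 0.64, adjusted p = 0.101).

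Over the 6 libraries, the protein-coding genes whose TPM profile was most like the mean profile of the 10 stem cell genes were Mpv17l2, Grn and Klc2, with Pearson r of 0.995, 0.994 and 0.992 among 11384 genes. On a protein-coding scale, with protein-coding rows rescaled to the full total, they were Rexo5, Mthfsd and Pdk2, with r of 0.984, 0.976 and 0.974 among 12384 genes. The points share library and depth, and with so many genes and 6 libraries such values describe these libraries only.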
